A study of Homo sapiens with 60 samples.

Results

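The targets of YAP and of serum response factor (SRF) were followed through 10 genes of 1321N1, a human astrocyte-derived cell line, during exposure to arsenic, cadmium, or mercury. The 10 genes were taken by symbol from the 62703 genes of the count table, and every symbol had a row. CCN1, CCN2, ANKRD1, and AMOTL2 were grouped as YAP targets, and ACTA2, TAGLN, MYL9, VCL, and TPM1 were grouped with SRF itself as SRF and cytoskeletal genes. Cells in full medium received 2.55 µM sodium metaarsenite, 2.3 µM cadmium chloride, or 20 µM mercury chloride, or were left non-treated, for 1.5, 3, 6, 12, or 24 h. Each metal and time point had 3 libraries, which made 20 groups and 60 libraries. The comparisons asked how each metal moved these genes relative to non-treated cells kept for as long, how the metals differed from each other, and how an effect changed with time. All groups come from 1 line, each metal was given at 1 dose, and the design text calls the triplicates technical, so that p values may not cover the spread between independent cultures.

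YAP and its paralog TAZ (gene WWTR1) are co-activators that the LATS kinases of the Hippo pathway keep out of the nucleus. In the nucleus they bind TEAD factors, which recognise the letters GGAATG, and turn on genes such as CCN1, CCN2, ANKRD1, and AMOTL2. SRF binds the CArG box and works with MRTF cofactors, which are set free when actin polymerises and drive cytoskeletal genes, or with TCF cofactors downstream of ERK, which drive immediate-early genes. Both routes answer to the state of the actin cytoskeleton and share some targets.

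To show the letters that the names of these families refer to, the 250 bases before the transcription start were searched on both strands. The motifs were GGAATG, which reads CATTCC on the opposite strand, and the CArG box, taken as CCWWWWWWGG with W for A or T. Sequences 1 base off that form were not counted. The sequences are from RefSeq on GRCh38.p14, where 10 promoters of 7 of the genes were found. None was found for CCN1, TAGLN, or MYL9, which were not searched. GGAATG was in 11.9% of 35116 promoters of that length and in 5 of the 10, and the CArG box was in 1.16% and in 1 of the 10. A match describes the sequence and does not show that a factor binds there. The 4 promoters printed here are those of the YAP targets that moved most with mercury and with cadmium (CCN2 and ANKRD1), of SRF, and of VCL, whose RNA fell with 2 metals. Each is written 5′ to 3′ on the strand of its gene and ends at the base before the start, with the matches in capitals, and no match overlaps another.
CCN2, chr6:131951373-131951622, minus strand: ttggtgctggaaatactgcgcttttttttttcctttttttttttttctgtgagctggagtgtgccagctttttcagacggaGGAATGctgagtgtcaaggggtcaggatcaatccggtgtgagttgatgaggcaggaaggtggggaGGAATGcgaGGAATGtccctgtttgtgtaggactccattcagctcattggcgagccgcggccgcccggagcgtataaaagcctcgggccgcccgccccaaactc
ANKRD1, chr10:90921088-90921337, minus strand: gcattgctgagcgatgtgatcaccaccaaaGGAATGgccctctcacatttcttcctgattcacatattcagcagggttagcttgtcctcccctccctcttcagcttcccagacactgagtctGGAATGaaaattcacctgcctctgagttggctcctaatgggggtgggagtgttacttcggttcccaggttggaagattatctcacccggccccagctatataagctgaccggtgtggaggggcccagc
SRF, chr6:43171019-43171268, plus strand: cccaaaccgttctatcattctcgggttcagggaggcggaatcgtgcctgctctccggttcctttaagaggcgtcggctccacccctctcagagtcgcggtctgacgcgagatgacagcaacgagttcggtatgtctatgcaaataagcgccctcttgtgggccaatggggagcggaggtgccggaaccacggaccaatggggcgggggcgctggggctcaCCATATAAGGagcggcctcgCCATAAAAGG
VCL, chr10:73997866-73998115, plus strand: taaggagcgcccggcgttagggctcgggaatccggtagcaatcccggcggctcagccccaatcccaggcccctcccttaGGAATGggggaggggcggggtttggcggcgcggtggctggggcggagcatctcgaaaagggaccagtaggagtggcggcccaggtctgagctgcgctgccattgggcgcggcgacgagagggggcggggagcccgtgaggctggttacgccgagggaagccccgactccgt
CCN2 held 3 copies of GGAATG, which began 169, 104, and 95 bases before the start, and ANKRD1 held 2, at 220 and 128 bases. SRF held 2 CArG boxes in the printed promoter, at 30 and 10 bases before its own start, and no GGAATG. The other SRF promoter searched held neither motif. VCL held 1 GGAATG at 171 bases and no CArG box. AMOTL2 and ACTA2 each held 1 match to the TEAD letters in 1 of their 2 promoters, and neither motif was found in the promoter of TPM1. The ACTA2 promoter with that match also holds CCCTATATGG and CCTTGTTTGG, each 1 base off the CArG form searched. Such forms were not searched for in the other promoters.

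Reads were taken from the 3′ end of transcripts, so that the count of a gene does not grow with its length. The libraries held 2215276 to 4404609 counts, and levels are given as CPM, counts scaled to the TMM-normalised library size, on which 1 count was worth 0.227 to 0.453 CPM. LFC is the log2 fold change fitted by edgeR over all 60 libraries, with its standard error (SE), and a gene was called higher or lower at a Benjamini-Hochberg adjusted p under 0.05 over the 12341 genes tested in a comparison, whatever the size of the change. Of the 10 genes 9 passed the filter on low counts, and MYL9 did not. The libraries carried few marks of mature astrocytes: AQP4 and ALDH1L1 had 0 counts in every library, GFAP had at most 3 and S100B at most 1, whereas VIM stood at 3007 to 5767 CPM and CD44 at 223 to 498 CPM. Among markers of other cell types, MYH11 of smooth muscle had 0 counts and KRT18 of epithelium stood at 37.3 to 89.0 CPM. The summed level of the 8 markers of other cell types ran from 37.9 to 59.8 CPM in non-treated libraries, 41.3 to 72.0 with arsenic, 44.9 to 80.3 with cadmium, and 41.7 to 89.3 with mercury. KRT18, the only 1 of the 8 that was tested, was called higher with mercury at 12 h (LFC 0.62) and 24 h (LFC 0.73) and in no other comparison with non-treated cells. Among the astrocyte markers tested, CD44 was called lower with arsenic at 24 h (LFC -0.46) and higher with cadmium at 12 h (LFC 0.37), NES was called lower with mercury at 24 h (LFC -1.62), and VIM was not called. NES had few counts, with a mean of 11.4 and at most 25 per library (0.330 to 7.69 CPM). The part of these markers in the results was not tested. In RNA of whole cultures, fewer cells that express a gene and less of its RNA per cell cannot be told apart.

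All rises past the test were in the 4 YAP targets, and the falls were in CCN1, VCL, and TPM1. With arsenic, 2 of the 45 comparisons of a gene at a time point were higher, against a background of 1.94% over all genes tested and the 5 time points, and 4 were lower (background 1.96%). With cadmium, 6 of 45 were higher (background 1.71%) and 0 were lower (background 0.810%), also at an unadjusted p under 0.05 and with DESeq2. The 45 comparisons repeat the same genes over the 5 time points. The rises with arsenic were all of ANKRD1, at 6 and 24 h. Those with cadmium were of ANKRD1 at 3, 6, 12, and 24 h, CCN1 at 6 h, and AMOTL2 at 12 h. With mercury, 9 were higher (background 5.83%) and 4 were lower (background 4.87%). As shares these were 4.44% higher and 8.89% lower with arsenic, 13.3% higher with cadmium, and 20.0% higher and 8.89% lower with mercury. The genes were chosen with earlier results of these data known, so that these shares, and those given below, are descriptions and not a test against the background. SRF, ACTA2, and TAGLN passed the test in none of the 15 comparisons with non-treated cells in the edgeR fit, and had an unadjusted p under 0.05 in 4, 1, and 0 of them. For SRF, mercury at 6 h lay next to the threshold and was past it in all 6 other settings tried, but in only 2 of 6 fits that left out 1 library.

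**Figure D1:**
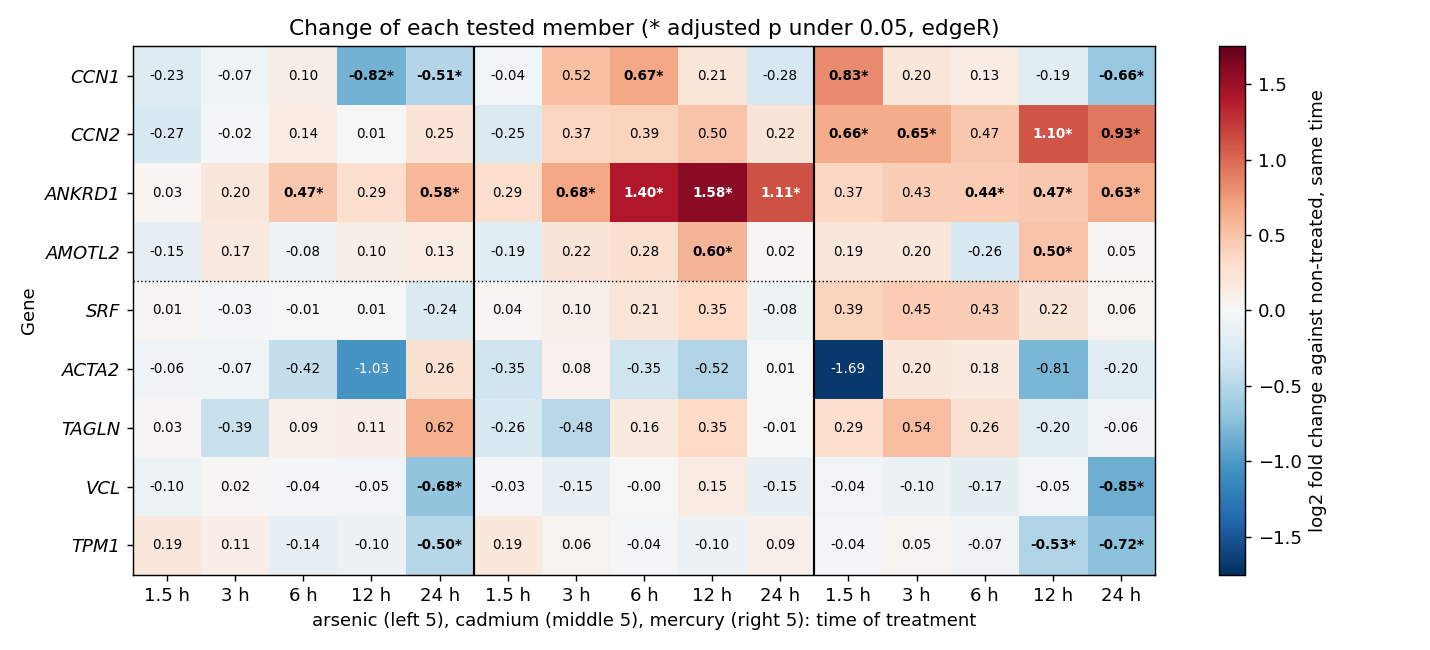
Log2 fold change against non-treated libraries, time by time, as colour and printed value, for the 9 tested genes (rows) with arsenic, cadmium, and mercury at 1.5 to 24 h (columns), where an asterisk marks an adjusted p under 0.05 (edgeR). The deepest red is ANKRD1 with cadmium (1.40 at 6 h and 1.58 at 12 h), the falls gather at 24 h with arsenic and mercury, and the deep blue cells of ACTA2 (-1.69 with mercury at 1.5 h) were not called.

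CCN1, a secreted matricellular protein, lies on chromosome 1 (85580761 to 85584589, plus strand, GRCh38) and had 453 to 2372 counts per library. At 1.5 h its level was 336, 371, and 282 CPM in non-treated libraries and 633, 576, and 544 CPM with mercury. Each mercury library stood above every non-treated library (LFC 0.83, SE 0.15, adjusted p = 0.000195), and this was the highest mean of the 20 groups. At 24 h the level was 281, 286, and 346 CPM in non-treated libraries, 196, 216, and 164 CPM with mercury, and 217, 233, and 191 CPM with arsenic. Both metals then lay wholly below the non-treated libraries, with LFC -0.66, SE 0.15, adjusted p = 0.000434 for mercury and LFC -0.51, SE 0.15, adjusted p = 0.0126 for arsenic. At 12 h only arsenic was called lower, with 127, 150.3, and 162 CPM against 217, 315, and 246 CPM (LFC -0.82, SE 0.15, adjusted p = 9.94e-05), the lowest mean of the 20 groups. Cadmium moved CCN1 the other way at 6 h, to 313, 358, and 462 CPM against 214, 269, and 226 CPM (LFC 0.67, SE 0.15, adjusted p = 0.00342), and replicate 3 was the highest of the 3. Without that library the cadmium call was lost (LFC 0.51, adjusted p = 0.116). The arsenic call at 24 h was lost without arsenic replicate 3 (LFC -0.43, adjusted p = 0.0831) or non-treated replicate 3 (LFC -0.40, adjusted p = 0.0896).

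CCN2, also known as connective tissue growth factor, is a secreted matricellular protein like CCN1 (chromosome 6, 131948176 to 131951372, minus strand, 117 to 776 counts per library). It was called with mercury, at 4 of the 5 times, and not with arsenic or cadmium. At 12 h the level was 105, 138, and 120.3 CPM with mercury and 43.5, 76.4, and 50.9 CPM without treatment (LFC 1.10, SE 0.18, adjusted p = 3.44e-06). At 24 h it was 134, 106, and 93.6 CPM against 51.9, 46.3, and 77.4 CPM (LFC 0.93, SE 0.18, adjusted p = 3.91e-05). The groups did not overlap at either time, and both calls held when any of the 6 libraries was left out. Mercury libraries also stood above the non-treated ones at 1.5 h, with 207, 164, and 176 CPM against 127, 115, and 104 CPM (LFC 0.66, SE 0.17, adjusted p = 0.0442). At 3 h the values were 77.6, 123, and 87.4 CPM and 52.1, 64.8, and 67.5 CPM (LFC 0.65, SE 0.18, adjusted p = 0.0419), with mercury replicate 2 well above the other two. The early calls were less firm than those at 12 and 24 h. At 1.5 h the call was lost whichever of the 6 libraries was left out (adjusted p 0.0534 to 0.395 in edgeR, LFC 0.56 to 0.73) and with DESeq2 (adjusted p = 0.119). At 3 h it was lost without mercury replicate 2 (LFC 0.42, adjusted p = 0.546) and without non-treated replicate 1 (LFC 0.55, adjusted p = 0.383), 2 (LFC 0.69, adjusted p = 0.103), or 3 (LFC 0.72, adjusted p = 0.0755). The call at 3 h was also lost with RLE factors (adjusted p = 0.0503), a minimum count of 50 (adjusted p = 0.0573), and DESeq2 (adjusted p = 0.0897). At 6 h mercury was not called (LFC 0.47, adjusted p = 0.104), but passed without a filter on low counts (adjusted p = 0.0101) and without non-treated replicate 2 (adjusted p = 0.0161). Cadmium came near the threshold at 12 h, with 79.6, 77.7, and 82.7 CPM, all above the non-treated libraries (LFC 0.50, SE 0.19, adjusted p = 0.0881). That comparison passed without a filter (adjusted p = 0.0167), with only the libraries compared (adjusted p = 0.0317), and without non-treated replicate 2, the highest of its group (LFC 0.77, adjusted p = 0.0110). The 95% interval of the LFC at 24 h was -0.12 to 0.61 for arsenic and -0.15 to 0.59 for cadmium.

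ANKRD1, an ankyrin repeat protein of the nucleus and the sarcomere (chromosome 10, 90912096 to 90921087, minus strand, 106 to 575 counts per library), was the gene that cadmium raised most. Non-treated libraries held 42.8, 43.3, and 45.7 CPM at 3 h, 52.9, 59.4, and 48.7 CPM at 6 h, 61.1, 64.1, and 63.5 CPM at 12 h, and 49.6, 55.2, and 44.6 CPM at 24 h. With cadmium the values were 68.2, 66.6, and 76.4 CPM at 3 h, 143, 153, and 129 CPM at 6 h, 176, 186, and 200.3 CPM at 12 h, and 96.8, 101, and 127 CPM at 24 h. No cadmium library overlapped the non-treated libraries of its time, and the cadmium libraries of 12, 6, and 24 h were, in that order and without overlap, the 3 highest groups of all 20. The LFC was 0.68 (SE 0.12, adjusted p = 0.000707) at 3 h, 1.40 (SE 0.12, adjusted p = 2.24e-14) at 6 h, 1.58 (SE 0.12, adjusted p = 1.15e-17) at 12 h, and 1.11 (SE 0.12, adjusted p = 8.39e-11) at 24 h, and each of these calls held when any 1 library was left out.

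Arsenic and mercury raised ANKRD1 less. Mercury libraries held 67.2, 78.5, and 72.2 CPM at 6 h, 84.9, 96.3, and 80.8 CPM at 12 h, and 87.0, 78.2, and 65.9 CPM at 24 h, and the LFC was 0.44 (SE 0.12, adjusted p = 0.0151), 0.47 (SE 0.12, adjusted p = 0.00288), and 0.63 (SE 0.12, adjusted p = 3.91e-05). Arsenic libraries held 76.0, 70.4, and 77.0 CPM at 6 h and 73.4, 75.9, and 74.3 CPM at 24 h, with an LFC of 0.47 (SE 0.12, adjusted p = 0.0358) and 0.58 (SE 0.12, adjusted p = 0.000316). All of these lay above the non-treated libraries of their time without overlap. The calls at 6 h rested on single libraries. For mercury the call was lost without mercury replicate 2 (LFC 0.39, adjusted p = 0.0838) or non-treated replicate 3 (LFC 0.37, adjusted p = 0.113). For arsenic it was lost without arsenic replicate 1 (LFC 0.46, adjusted p = 0.133) or 3 (LFC 0.46, adjusted p = 0.132), and without non-treated replicate 1 (LFC 0.48, adjusted p = 0.117) or 3 (LFC 0.41, adjusted p = 0.248). With only the libraries compared, both calls at 6 h were lost (adjusted p = 0.0598 for mercury and 0.0516 for arsenic), and that of arsenic was lost without a filter on low counts (adjusted p = 0.110). At 12 h with arsenic, ANKRD1 did not pass, at 94.0, 70.8, and 66.6 CPM (LFC 0.29, SE 0.12, adjusted p = 0.178), with replicate 1 above the other two.

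AMOTL2, an angiomotin that binds YAP and is itself a YAP target (chromosome 3, 134355347 to 134375479, minus strand, 147 to 472 counts per library), passed the test only at 12 h. The level was 66.5, 98.1, and 79.2 CPM with cadmium and 77.5, 79.8, and 71.8 CPM with mercury, against 51.6, 59.8, and 50.7 CPM in non-treated libraries. Neither metal overlapped the non-treated libraries (LFC 0.60, SE 0.14, adjusted p = 0.00252 for cadmium; LFC 0.50, SE 0.14, adjusted p = 0.00835 for mercury). The cadmium call was lost without cadmium replicate 2, its highest library (LFC 0.44, adjusted p = 0.0908). With arsenic at 12 h the values were 50.7, 54.5, and 68.0 CPM (LFC 0.10, SE 0.14, adjusted p = 0.821).

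**Figure D2:**
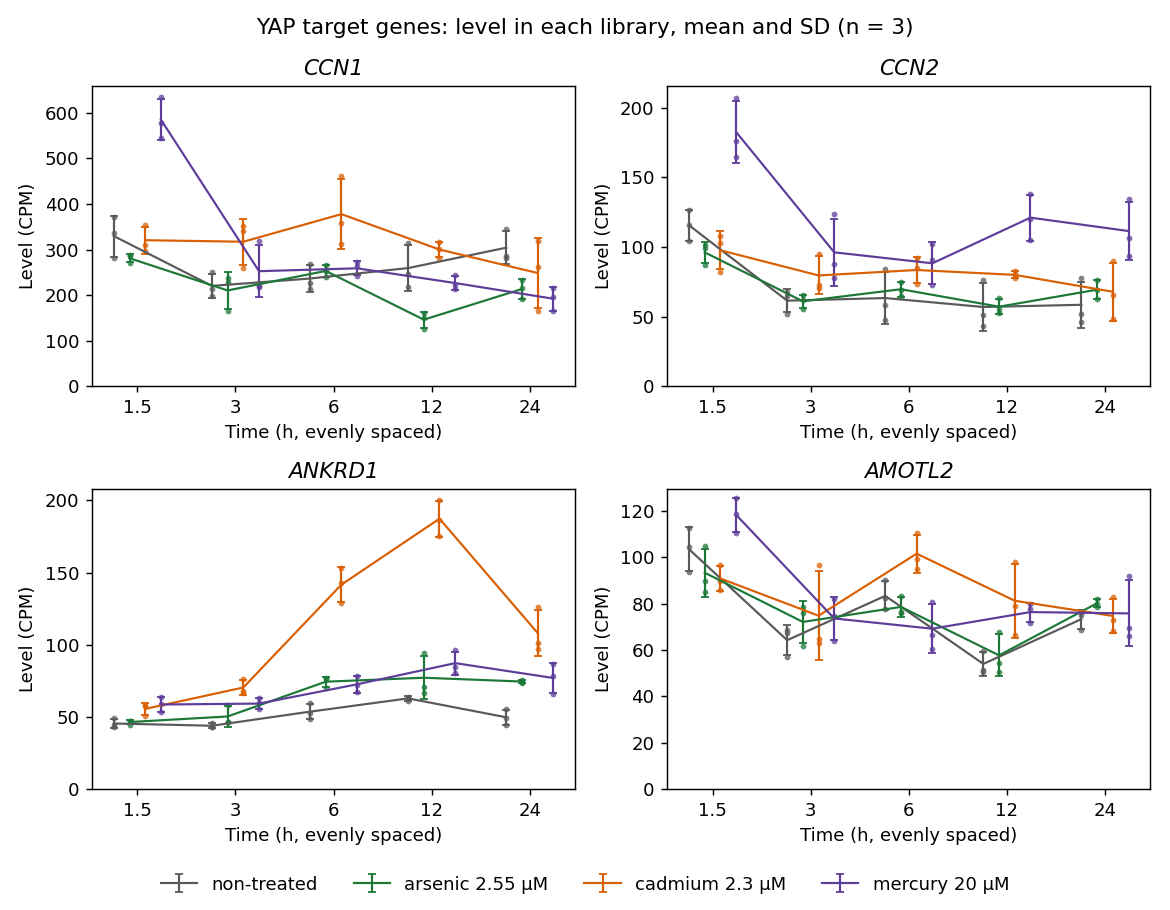
Level of each YAP target in CPM (vertical axis, from 0) against time of treatment in h (evenly spaced), with a point for each library and lines and bars for the mean and SD of 3 libraries, in grey for non-treated, green for arsenic, orange for cadmium, and purple for mercury. CCN1 and CCN2 were highest with mercury at 1.5 h (means of 585 and 182 CPM), and ANKRD1 was highest with cadmium at 12 h (187 CPM).

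These levels moved in non-treated cells too, and 8 of 36 comparisons with the 1.5 h libraries passed the test (22.2%, background 2.00%). CCN2 was lower at 3, 6, 12, and 24 h than at 1.5 h, by an LFC of -0.91 (adjusted p = 0.00530), -0.87 (adjusted p = 0.00790), -1.03 (adjusted p = 0.000179), and -0.98 (adjusted p = 0.000270). Non-treated AMOTL2 was lower at 3, 12, and 24 h, with an LFC of -0.69 (adjusted p = 0.00532), -0.94 (adjusted p = 4.75e-06), and -0.50 (adjusted p = 0.0241). Its libraries held 112, 93.6, and 104 CPM at 1.5 h and 51.6, 59.8, and 50.7 CPM at 12 h, so that the rises with cadmium and mercury at 12 h were set against its lowest non-treated level. ANKRD1 was higher at 12 h than at 1.5 h, with an LFC of 0.47 (adjusted p = 0.0210). CCN1, SRF, ACTA2, TAGLN, VCL, and TPM1 passed in none of the 4 non-treated comparisons. The calls that held whichever library was left out were CCN2 and AMOTL2 at 12 h and CCN2 at 24 h. Without non-treated replicate 1 of 1.5 h the count was 3 in place of 8. At 3 h the calls were lost without that library or, for CCN2, replicate 1 of 3 h (adjusted p up to 0.150) and, for AMOTL2, replicate 3 of 3 h (up to 0.175). CCN2 at 6 h was lost without it or without replicate 1 or 3 of 6 h (up to 0.183), and AMOTL2 at 24 h without replicate 1 or 3 of 1.5 h or replicate 1 or 2 of 24 h (up to 0.140). ANKRD1 at 12 h was lost without any of its libraries but replicate 2 of 1.5 h (up to 0.102), and without a filter on low counts (adjusted p = 0.0624).

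SRF, the transcription factor itself (chromosome 6, 43171269 to 43181506, plus strand, 281 to 702 counts per library), stood a little above non-treated cells early with mercury without passing the test. At 1.5 h it was 166, 187, and 171 CPM against 133, 123, and 144 CPM (LFC 0.39, SE 0.14, adjusted p = 0.476). At 3 h it was 159, 159, and 161 CPM against 133, 112, and 106 CPM (LFC 0.45, SE 0.14, adjusted p = 0.111), and at 6 h 143, 159, and 121 CPM against 119, 102, and 92.5 CPM (LFC 0.43, SE 0.14, adjusted p = 0.0504). The mercury libraries lay above the non-treated ones at all 3 times. The value at 6 h lay on the threshold and was past it in each of the 6 other settings tried (adjusted p at most 0.0481). When 1 of its libraries was left out, it passed in only 2 of 6 fits, without mercury replicate 3 or non-treated replicate 1. In the others the edgeR adjusted p was up to 0.232. With only the libraries compared, the values at 1.5 h (adjusted p = 0.0121) and 3 h (adjusted p = 0.00694) passed as well, and that at 3 h also did without a filter (adjusted p = 0.0309). With cadmium at 12 h the libraries held 236, 136, and 133 CPM, and replicate 1 alone stood high (LFC 0.35, SE 0.14, adjusted p = 0.121). Without it the LFC was 0.03, and without replicate 2 or 3 the comparison passed (LFC 0.48, adjusted p = 0.0464; LFC 0.49, adjusted p = 0.0459). With arsenic the LFC of SRF ran from -0.24 at 24 h to 0.01 at 1.5 h.

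VCL and TPM1 carried the falls among the cytoskeletal genes. VCL encodes vinculin, which links integrins and cadherins to actin (chromosome 10, 73995193 to 74121363, plus strand, 314 to 884 counts per library). At 24 h its level was 209.9, 195, and 218 CPM in non-treated libraries, 107, 132, and 147 CPM with arsenic, 98.6, 128, and 119 CPM with mercury, and 190.4, 209.9, and 162 CPM with cadmium. Arsenic (LFC -0.68, SE 0.10, adjusted p = 1.49e-07) and mercury (LFC -0.85, SE 0.10, adjusted p = 1.76e-10) lay wholly below the non-treated libraries, while cadmium was not called (LFC -0.15, SE 0.10, adjusted p = 0.571). At 12 h no metal was called, and the libraries held 169.9, 171, and 183 CPM with arsenic, 182, 158, and 185 CPM with mercury, and 167, 180.2, and 196 CPM without treatment, which overlapped.

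TPM1 encodes a tropomyosin that lies along actin filaments (chromosome 15, 63042632 to 63071915, plus strand, 544 to 1694 counts per library). Mercury lowered it at 12 h, to 275, 243, and 276 CPM against 406, 368, and 369.6 CPM (LFC -0.53, SE 0.10, adjusted p = 2.25e-05). At 24 h it was 171, 212, and 232 CPM with mercury and 247, 253, and 216 CPM with arsenic, against 337, 373, and 304 CPM (LFC -0.72, SE 0.10, adjusted p = 9.88e-09 for mercury; LFC -0.50, SE 0.10, adjusted p = 6.39e-05 for arsenic). None of these groups overlapped its non-treated libraries. Cadmium libraries at 24 h held 330.3, 345, and 409 CPM, around the non-treated values, and the 95% interval of the LFC was -0.09 to 0.28. The calls for VCL and TPM1 held in all 6 other settings and whichever library was left out.

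The smooth muscle genes of the list had few or almost no counts. ACTA2, alpha smooth muscle actin (chromosome 10, 88935074 to 88991339, minus strand), had 2 to 24 counts per library and a mean of 6.83. Its most distant comparison was mercury at 1.5 h, with 3, 6, and 2 counts (0.801, 1.60, and 0.494 CPM) against 8, 12, and 7 counts in non-treated libraries (2.54, 4.17, and 2.78 CPM; LFC -1.69, SE 0.64, adjusted p = 0.558). Its 95% intervals were wide, for example -1.53 to 1.13 for mercury at 24 h, so that changes within them cannot be told from none. TAGLN, the actin-binding protein transgelin (chromosome 11, 117199370 to 117207464, plus strand), had 3 to 24 counts, and its 95% intervals were wide, for example -1.08 to 0.96 for mercury at 24 h. The last 400 exonic bases of TAGLN lie wholly in an exon of another annotated gene of the same strand, ENSG00000280143, and reads that overlap more than 1 gene were not counted, so that the level of TAGLN cannot be read from these counts. That other gene had at most 5 counts in a library. MYL9, a regulatory myosin light chain (chromosome 20, 36541497 to 36551447, plus strand), had 1 count in all 60 libraries together. The limit that 3 counts set was 0.680 to 1.36 CPM per library, for counting error only. A change in MYL9 was not detectable at this depth.

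**Figure D3:**
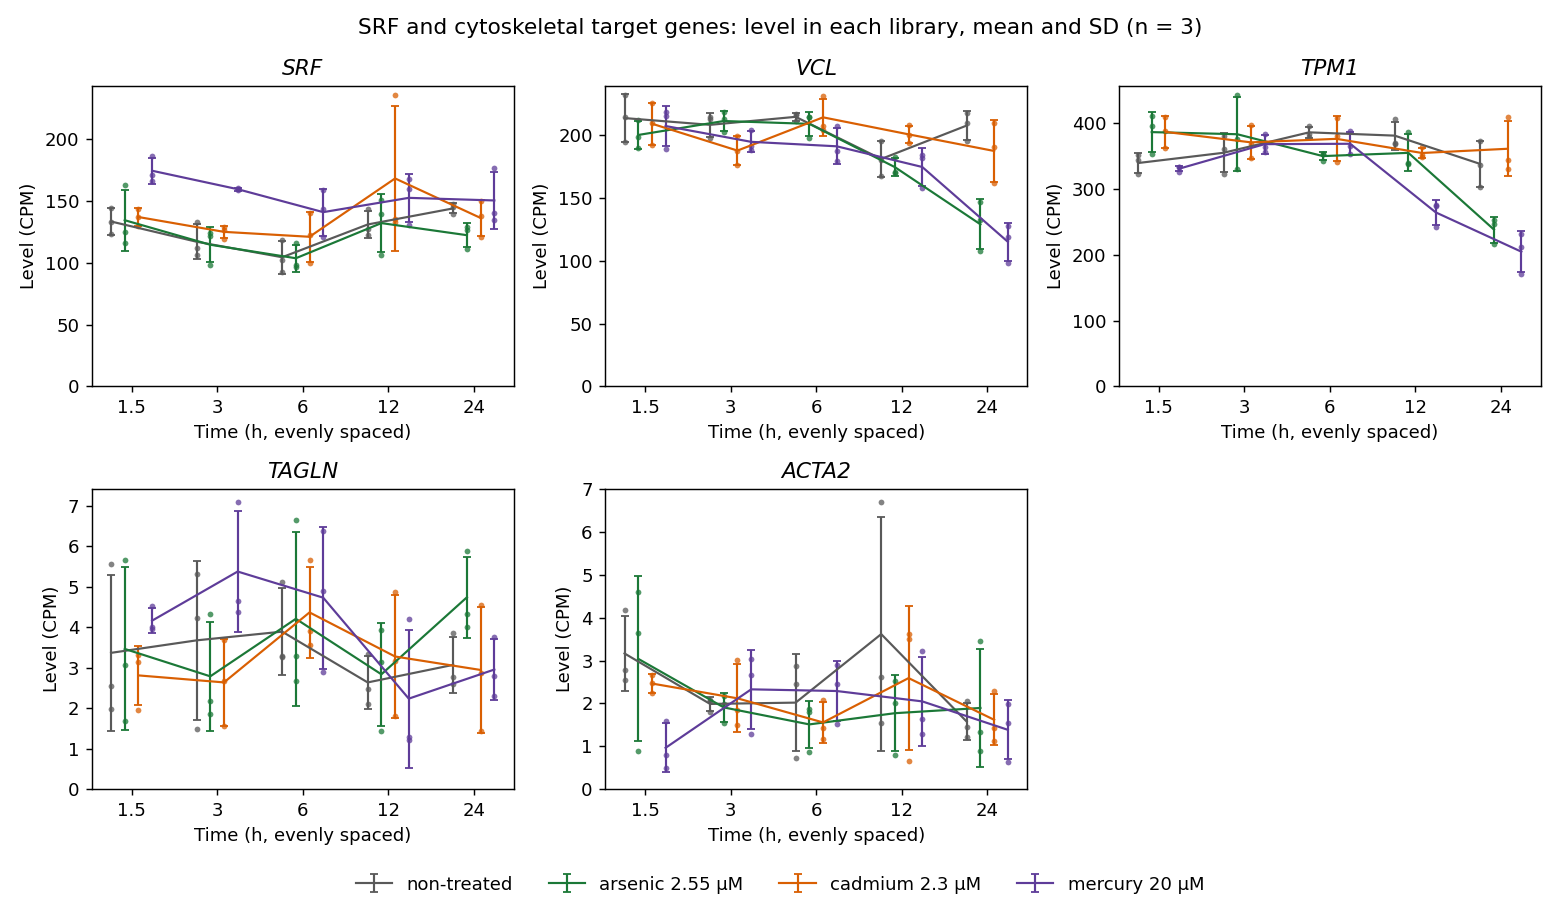
Level of SRF and of the tested SRF and cytoskeletal targets in CPM (vertical axis, from 0, with its own scale for each gene) against time of treatment in h (evenly spaced), with a point for each library and lines and bars for the mean and SD of 3 libraries. VCL and TPM1 dropped at 24 h with arsenic (means of 129 and 238 CPM) and mercury (115 and 205 CPM) and not with cadmium, while TAGLN and ACTA2 stayed under 8 CPM in every library.

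Set against each other at the same time point, and at doses that differed between them, arsenic and cadmium differed in 8 of 45 comparisons of a gene at a time (17.8%, background 3.46%), arsenic and mercury in 7 (15.6%, background 5.26%), and cadmium and mercury in 12 (26.7%, background 5.91%). ANKRD1 was higher with cadmium than with either other metal at 6, 12, and 24 h. At 12 h the LFC of arsenic against cadmium was LFC -1.28, SE 0.11, adjusted p = 6.01e-14, and that of cadmium against mercury was LFC 1.10, SE 0.11, adjusted p = 6.47e-11. CCN2 was higher with mercury than with arsenic at 1.5, 3, 12, and 24 h, and higher than with cadmium at 1.5, 12, and 24 h. At 24 h the difference was LFC -0.68, SE 0.18, adjusted p = 0.00580 for arsenic against mercury and LFC -0.71, SE 0.18, adjusted p = 0.00225 for cadmium against mercury. CCN1 at 1.5 h was likewise higher with mercury, with LFC -1.06, SE 0.15, adjusted p = 7.47e-07 for arsenic and LFC -0.87, SE 0.15, adjusted p = 6.62e-05 for cadmium. At 12 h CCN1 was lower with arsenic than with cadmium (LFC -1.03, SE 0.15, adjusted p = 8.57e-07) and than with mercury (LFC -0.63, SE 0.15, adjusted p = 0.00449). Cadmium stood above mercury at 6 h for CCN1 (LFC 0.54, SE 0.15, adjusted p = 0.0197) and AMOTL2 (LFC 0.55, SE 0.14, adjusted p = 0.00873), and above arsenic for CCN1 at 6 h (LFC -0.58, SE 0.15, adjusted p = 0.0267) and AMOTL2 at 12 h (LFC -0.50, SE 0.14, adjusted p = 0.0181), where the libraries of the last pair overlapped.

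For the cytoskeletal genes, cadmium stood above the other metals late. At 24 h VCL differed between arsenic and cadmium (LFC -0.54, SE 0.10, adjusted p = 4.16e-05) and between cadmium and mercury (LFC 0.71, SE 0.10, adjusted p = 9.83e-08). TPM1 did so too, with LFC -0.60, SE 0.10, adjusted p = 2.86e-06 and LFC 0.82, SE 0.10, adjusted p = 6.49e-10. At 12 h TPM1 was higher with arsenic than with mercury (LFC 0.43, SE 0.10, adjusted p = 0.00176) and higher with cadmium than with mercury (LFC 0.42, SE 0.10, adjusted p = 0.00322). No comparison between metals passed for SRF, ACTA2, or TAGLN. Of the 27 differences, 18 held whichever of their 6 libraries was left out. Those lost without a single library were TPM1 at 12 h between cadmium and mercury (without mercury replicate 2, adjusted p = 0.0516), CCN1 at 12 h between arsenic and mercury (without arsenic replicate 1, adjusted p = 0.0614), and CCN2 at 24 h between arsenic and mercury (without mercury replicate 1, adjusted p = 0.0843). CCN2 was lost at 3 h between arsenic and mercury without any arsenic library or mercury replicate 2 (up to 0.412), and at 12 h between cadmium and mercury without any cadmium library or mercury replicate 2 or 3 (up to 0.261) and with DESeq2 (adjusted p = 0.0601). CCN1 at 6 h was lost between arsenic and cadmium without any arsenic library or cadmium replicate 3 (up to 0.338), and between cadmium and mercury without cadmium replicate 3 or mercury replicate 1 or 2 (up to 0.253). AMOTL2 was lost at 6 h without the same 3 libraries (up to 0.110), and at 12 h without arsenic replicate 1 or 2 or cadmium replicate 2 (up to 0.255).

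Changes with time were tested as differences between effects. The effect of a metal, taken as its LFC against non-treated cells, differed from that at the preceding time point in 5 of 108 comparisons (4.63%, background 0.508%). With mercury, the effect on VCL fell by 0.80 on the log2 scale from 12 to 24 h (SE 0.14, adjusted p = 0.000473), and with arsenic it fell by 0.63 (SE 0.14, adjusted p = 0.00706). The mercury step held in all 12 fits that left out 1 of its libraries, and the arsenic step held in 11 of 12 and was lost without arsenic 24 h replicate 1 (adjusted p = 0.0559) and with only the libraries compared (adjusted p = 0.0517). Arsenic lowered the effect on CCN1 by an LFC of -0.92 between 6 and 12 h (SE 0.21, adjusted p = 0.0274). Cadmium raised that on ANKRD1 by 0.72 between 3 and 6 h (SE 0.17, adjusted p = 0.0372), and mercury raised that on AMOTL2 by 0.77 between 6 and 12 h (SE 0.20, adjusted p = 0.0253). These last 3 steps were less firm. That of CCN1 was lost without arsenic replicate 1 of 6 h or 1 or 2 of 12 h, non-treated replicate 1 or 3 of 6 h, or 2 of 12 h (adjusted p up to 0.216). That of AMOTL2 was lost without mercury replicate 1 or 2 of either time, non-treated replicate 2 of 6 h, or 1 of 12 h (up to 0.107). That of ANKRD1 was lost in 9 of 12 fits (up to 0.138), and held only without cadmium replicate 3 of either time or non-treated replicate 2 of 6 h. It was also lost without a filter on low counts (adjusted p = 0.0538). Between 1.5 and 24 h, the effect differed in 7 of 27 comparisons of a gene with a metal (25.9%, background 7.05%), for CCN1 with mercury, ANKRD1 with arsenic and cadmium, and VCL and TPM1 with arsenic and mercury. This last contrast was added after the values were seen.

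Over the 20 group means of log2 CPM, most of the closest pairs of members lay within the named groups. VCL and TPM1 had the closest pair of profiles (Pearson r = 0.868). CCN1 and AMOTL2 (r = 0.744), CCN2 and AMOTL2 (r = 0.708), CCN2 and SRF (r = 0.628), and CCN1 and CCN2 (r = 0.580) came next, of which CCN2 and SRF come from different groups. ANKRD1 was nearly unrelated to the other YAP targets, with r = 0.0264 for CCN1, 0.00449 for CCN2, and 0.0199 for AMOTL2. SRF had low negative values with the targets grouped with it, r = -0.179 for VCL and -0.256 for TPM1. Neither named group therefore moved as a whole. These values describe 20 points that share libraries, depth, and time in culture, and no test was made of them. Among 7253 genes that averaged 50 counts or more, the profiles most like that of CCN1 were KLF7 (r = 0.853), PSD3 (0.812), KLF2 (0.785), CDC42EP3 (0.779), and MYBL1 (0.761).

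Other genes of the same pathways, taken from hand-written lists, were counted at 24 h against the shares of all tested genes called at that time, which were 6.54% higher and 7.75% lower with arsenic, 1.56% and 0.616% with cadmium, and 13.9% and 13.9% with mercury. Of 17 tested genes among 18 other YAP and TEAD targets, arsenic raised 2 and lowered 5, cadmium raised 1, and mercury raised 5 and lowered 3. That list had a median LFC of -0.19 for arsenic, -0.10 for cadmium, and -0.19 for mercury. The median of all genes, which TMM scaling keeps near no change, stayed between -0.02 and 0.01 in the comparisons with non-treated cells. How far medians of lists this small vary was not tested. GADD45A, a stress-induced growth arrest gene, rose with every metal, to 321 ± 34.8 CPM with mercury, 177 ± 2.92 with arsenic, and 154 ± 30.7 with cadmium from 86.6 ± 24.7 CPM (mean ± SD, n = 3; LFC 1.89, 1.04, and 0.84). IGFBP3, a secreted IGF-binding protein, fell from 52.1 ± 2.47 CPM to 25.1 ± 0.789 with mercury (LFC -1.05) and 27.2 ± 2.45 with arsenic (LFC -0.93). FOXF2, a forkhead factor, rose with mercury, from 14.4 ± 7.84 to 27.5 ± 5.68 CPM (LFC 0.93, edgeR adjusted p = 0.0343), a call that DESeq2 did not give (adjusted p = 0.0627). Cadmium called more of these 17 genes at 12 h than at 24 h. At 12 h it raised 5 (ASAP1, F3, CRIM1, GADD45A, and NT5E, background 5.19%) and lowered 0 (background 2.99%).

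Among 16 tested Hippo kinases, adaptors, and TEAD factors, mercury at 24 h raised 5 (STK3, STK4, SAV1, WWTR1, and TEAD3) and lowered 3 (NF2, TEAD2, and TEAD4), arsenic lowered 2 (NF2 and AMOTL1), and cadmium moved none (1 at an unadjusted p under 0.05). WWTR1, which encodes TAZ, rose from 91.1 ± 5.45 to 181 ± 12.0 CPM with mercury (n = 3; LFC 0.99, SE 0.10, adjusted p = 9.45e-13). TEAD3 rose from 13.0 ± 2.16 to 24.6 ± 3.02 CPM (LFC 0.92, edgeR adjusted p = 0.0325), which DESeq2 did not call either (adjusted p = 0.0585). YAP1 itself was not called at 24 h with any metal, and its 95% interval with mercury was -0.28 to 0.24. NF2, which encodes the Hippo activator merlin, fell from 165 ± 25.6 CPM to 98.1 ± 2.69 with arsenic (LFC -0.75) and 117 ± 7.85 with mercury (LFC -0.50). Before 24 h, cadmium raised STK4 and TEAD1 at 12 h (background 5.19%) and lowered TEAD4 at 6 h (background 0.446%), the last not with RLE factors.

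In the list of 19 other cytoskeletal SRF and MRTF targets, all tested, mercury at 24 h lowered 7 (ACTB, ACTG1, CNN2, MYH9, PDLIM7, TAGLN2, and TLN1) and raised 2 (FHL2 and ZYX), arsenic lowered 5 and raised 1, and cadmium raised 1. Its median LFC was -0.26 for mercury, -0.19 for arsenic, and 0.01 for cadmium. CNN2, a calponin, fell from 94.8 ± 14.0 to 51.5 ± 6.15 CPM with mercury (LFC -0.88, adjusted p = 4.52e-08). TAGLN2, a relative of TAGLN, fell from 701 ± 96.7 CPM to 484 ± 44.4 with arsenic (LFC -0.53) and 531 ± 19.8 with mercury (LFC -0.40). ZYX, which encodes the focal adhesion protein zyxin, rose from 71.6 ± 5.48 to 109 ± 12.7 CPM with mercury (LFC 0.61). At 12 h cadmium raised 3 of the 19 (CNN3, FHL2, and TPM4, background 5.19%) and lowered 0 (background 2.99%).

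The immediate-early genes, which SRF drives with TCF cofactors, were called higher with mercury in numbers that varied with time. Of 5 tested genes among 7, mercury raised EGR1, IER2, and JUNB at 1.5 h (3 genes, background 0.478% higher) and at 3 h (3 genes, background 1.39%). Only EGR1 was called at 6 h (1 gene, background 4.49%), EGR1, FOSB, and IER2 at 12 h (3 genes, background 8.90%), and all 5 at 24 h. DESeq2 called 2 higher at 6 h and 2 at 12 h, so that the counts at these times depended on the method. FOS and FOSB did not pass at 1.5 h, though all 5 genes had an LFC of at least 0.87 then. That they did not pass does not show that they stayed unchanged. EGR1, a zinc finger factor, stood at 291 ± 7.58 CPM at 1.5 h with mercury against 33.0 ± 3.56 CPM (LFC 3.14, SE 0.19, adjusted p = 8.45e-21). JUNB rose at 24 h from 94.8 ± 6.35 to 179 ± 11.1 CPM (LFC 0.91). FOSB and FOS were almost without counts in non-treated libraries at 24 h (0.461 ± 0.407 and 0.294 ± 0.288 CPM), so that no fold is given, and stood at 20.4 ± 3.28 and 10.2 ± 6.71 CPM with mercury. FOSB was also called with cadmium, at 7.70 ± 4.90 CPM. Arsenic lowered 1 of the 5 at 24 h (IER2) and raised none. Before 24 h, arsenic raised IER2 at 1.5 h (background 0.0648%) and lowered IER2 and JUNB at 12 h (background 1.74%). Cadmium raised JUNB at 6 h (background 1.60%) and EGR1 at 12 h (background 5.19%). Of 6 tested SRF cofactors and their regulators, none was called with any metal at 24 h (3 of the comparisons had an unadjusted p under 0.05), and ELK3, a TCF, was higher with mercury at 6 and 12 h.

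**Figure D4:**
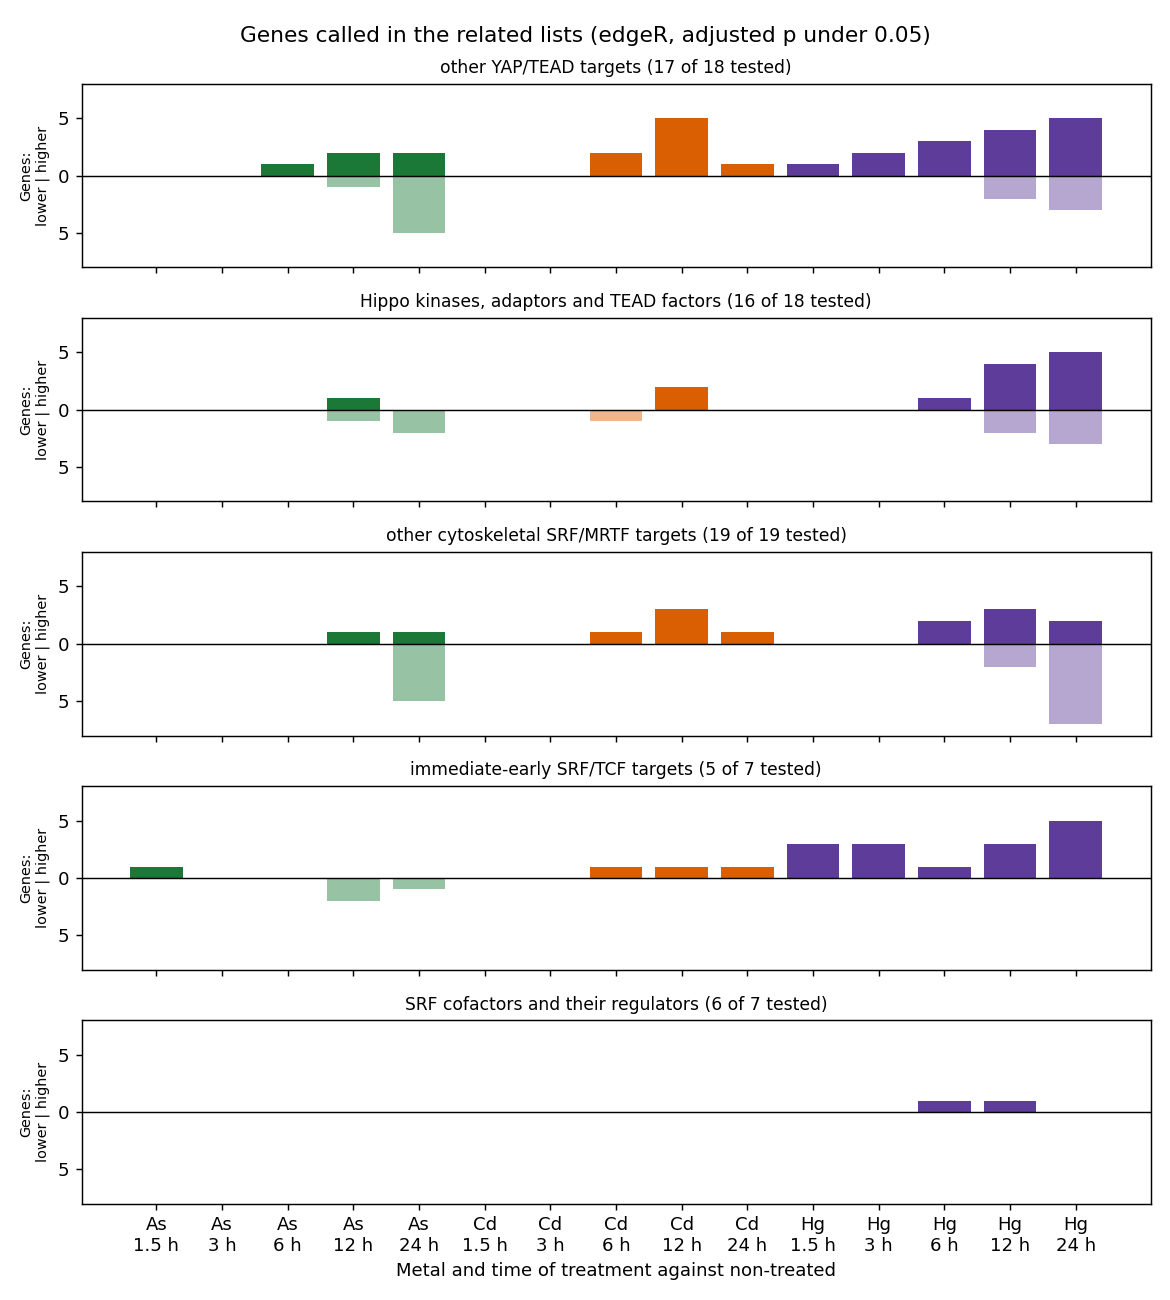
Number of genes of 5 related lists called higher (bars above 0) and lower (paler bars below 0) against non-treated libraries, by metal and time, with arsenic in green, cadmium in orange, and mercury in purple (edgeR, adjusted p under 0.05). With mercury, the immediate-early genes called higher were 3 of 5 at 1.5, 3, and 12 h, 1 at 6 h, and 5 at 24 h, and the longest bar below 0 is that of 7 other cytoskeletal targets with mercury at 24 h.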

How the data were processed

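60 libraries of RNA from 1321N1 were sequenced by the QuantSeq 3′ mRNA method. The authors aligned reads to GRCh38 with STAR (2.7.9a per the submitters' processing notes) and summed them over exons (GENCODE basic set) with GenomicAlignments, whose Union mode drops a read that falls on several genes. The counts were deposited as whole numbers, not normalized, for 62703 genes, together with 92 spike-in sequences at 0 counts, which were not used. Groups, doses, and times were taken from the sample labels.

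The counts of all libraries were fitted in edgeR 4.0.16 (R 4.3.3) by its quasi-likelihood method, with 1 coefficient per group, TMM factors (0.934 to 1.03), and filterByExpr (minimum count 10, minimum total 15). Contrasts were each metal against non-treated libraries, the metals against each other, an effect against that at the preceding time, and non-treated libraries against 1.5 h. The contrast of the effect at 24 h with that at 1.5 h was added after values were seen. P values were adjusted by Benjamini-Hochberg over all genes of a contrast, and SE was taken as the LFC over the root of F. The test was checked on simulated counts with known changes.

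The 10 genes and the lists were chosen with earlier results of these data known. All 10 genes are named. Of each related list, the 3 tested genes with the largest LFC among those called at 24 h with any metal are named, and for CCN1 the 5 genes with the most similar group means. The same was planned for TAGLN and is not given, since its level cannot be read. EGR1, YAP1, and the genes behind counts were named after their values were seen. Alternatives were DESeq2 1.42.0, RLE factors, no filter, a minimum count of 50, a replicate block, only the libraries compared, and leaving out each library. Calls whose absolute LFC was over 1 were also counted.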

Additional observations from a re-analysis of the deposited data

Results flagged for a closer look

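The following effects, each an LFC against non-treated cells of the same time, differed between time points by a test of the difference itself in edgeR (adjusted p under 0.05). The size of the difference is given, and no cause was tested. The contrasts of 24 h minus 1.5 h were added after the values were seen.

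The effect of mercury on CCN1 at 24 h minus that at 1.5 h was -1.49 (SE 0.21, adjusted p = 1.67e-07), since it was called higher at 1.5 h and lower at 24 h. That of arsenic on CCN1 at 12 h minus 6 h was -0.92 (adjusted p = 0.0274). For ANKRD1, cadmium gave a difference of 0.72 at 6 h minus 3 h (adjusted p = 0.0372) and of 0.83 at 24 h minus 1.5 h (adjusted p = 0.00407), and arsenic gave 0.55 at 24 h minus 1.5 h (adjusted p = 0.0382). The arsenic difference was lost in 9 of 12 fits that left out 1 library, with an adjusted p of up to 0.0991, and held only without arsenic replicate 3 of 1.5 h, non-treated replicate 3 of 1.5 h, or non-treated replicate 2 of 24 h. It was also lost without a filter on low counts and with only the libraries compared (up to 0.145). For AMOTL2, mercury gave 0.77 at 12 h minus 6 h (adjusted p = 0.0253).

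For VCL, the effect at 24 h minus that at 12 h was -0.63 with arsenic (adjusted p = 0.00706) and -0.80 with mercury (adjusted p = 0.000473). Taken at 24 h minus 1.5 h, it was -0.59 with arsenic (adjusted p = 0.00238) and -0.81 with mercury (adjusted p = 1.34e-05). TPM1 gave -0.69 with arsenic (adjusted p = 0.000187) and -0.69 with mercury (adjusted p = 0.000152) at 24 h minus 1.5 h. The differences of VCL and TPM1 between 24 and 1.5 h, that of CCN1 with mercury, and that of ANKRD1 with cadmium between 24 and 1.5 h held in all 12 fits that left out 1 of their libraries.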

How the results depend on the processing

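No result changed direction past the test under any alternative. Counts moved by over 1.5 times in few settings. The comparisons higher with arsenic went from 2 to 1 without a filter on low counts and to 1 with only the libraries compared. Calls with an absolute LFC over 1 were also counted, without a test of the LFC against that size. Against non-treated cells they were 0 higher and 0 lower with arsenic, 3 higher with cadmium, and 1 higher and 0 lower with mercury. Between metals they were 2 for arsenic against cadmium, 2 for arsenic against mercury, and 1 for cadmium against mercury. There were 0 such calls for steps in time and 1 in non-treated cells. When 1 library was left out, the counts ranged from 1 to 2 higher and 3 to 4 lower with arsenic, 5 to 7 higher and 0 to 0 lower with cadmium, 8 to 10 higher and 4 to 4 lower with mercury, 7 to 9 for arsenic against cadmium, 6 to 8 for arsenic against mercury, 10 to 13 for cadmium against mercury, 3 to 6 for steps in time (3 without non-treated 6 h replicate 1 or 3), and 3 to 8 in non-treated cells (3 without non-treated 1.5 h replicate 1). The cause was not tested. Same-numbered treated and non-treated libraries did not deviate together (median r -0.00799 over 45 pairs, at most 0.0837), and they were not treated as pairs. A replicate block gave 2 higher and 4 lower with arsenic, 6 and 0 with cadmium, and 10 and 4 with mercury. DESeq2 gave 2 and 4, 6 and 0, and 8 and 4. In the related lists at 24 h, 4 calls changed: TLN1 was lost with mercury under RLE factors and DESeq2 (6 lowered in place of 7), and under DESeq2 alone FOXF2 and TEAD3 were lost with mercury (4 raised in place of 5 in each list) and STK3 was gained with arsenic (adjusted p = 0.0447). Depth limits MYL9, and only wide intervals could be had for ACTA2.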
